A study of Mus musculus with 4 samples.

Results

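A set of 7 genes of the TGF-beta pathway was followed through an ATAC-seq study of 2 gene knockouts in mouse fibroblasts. They were the ligand gene Tgfb2, the receptor gene Tgfbr2, the signal transducers Smad3 and Smad4, the SMAD corepressor gene Skil and the target genes Tgfbi and Snai1. The regions described are all those that the authors' tables assign to one of these gene names, 11 of 34172. The Kindlin-2 table held 4 of them among 5727 regions, 1 each for Tgfbr2, Smad4, Skil and Snai1. In the Rela table there were 7 among 28445, 1 for each gene. That made 4 genes present in each of the 2 tables. The regions were taken by gene name, and the genes themselves were chosen with earlier results of these data known.

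In ATAC-seq the Tn5 transposase cuts open chromatin and inserts sequencing adapters, so the amount of sequence from a region tracks its accessibility. Libraries were made from 50000 cells each, in 4 genotypes. One pair of kidney fibroblast cultures carried floxed Kindlin-2 alleles or lacked Kindlin-2, the integrin-binding adaptor encoded by Fermt2. The other pair were embryo fibroblasts of the immortal 3T3 line, wild type or without Rela, which encodes the NF-kB subunit p65. All were grown in medium with calf serum and used at passage 15 to 20. How the floxed alleles were removed, and whether the cultures are single clones, is not given in the sources used here.

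TGF-beta ligands are secreted in a latent form and, once released, bind a type II receptor that recruits and phosphorylates a type I receptor. The type I receptor phosphorylates SMAD2 and SMAD3, which join SMAD4 and enter the nucleus to regulate target genes, while SKIL and SKI hold these complexes in check. In fibroblasts the pathway is known for driving matrix production, contractile gene expression and the myofibroblast state.

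Each genotype had 1 column of values, so none of the differences below has a replicate check and no test between genotypes was possible. The design text names 2 biological replicates for every genotype without saying how the deposited column was formed from them. Values are called normalized signal and were scaled within each table, so levels of the 2 tables are not set against each other. The log2 ratio is that of knockout over control after adding 1 to both signals. A region was called higher or lower at 2-fold or more on that scale. Fold differences are ratios of the signals themselves, and ranges after them are 95% exact intervals that cover counting error only. At the median region the implied count was about 11.8 for Kindlin-2 floxed cells, 49.8 for wild-type 3T3 cells and 36.9 for those without Rela. In Kindlin-2 knockout cells the depth could not be read, and a median of 16 was assumed. Nuclear regions made up 134996 of a summed signal of 1655317 in floxed cells and 114217 of 827408 in their knockout, the rest being mitochondrial. In bulk libraries, fewer cells with an open region and less opening in each cell cannot be told apart. Neither table checked its knockout: the Kindlin-2 table held 0 regions of Fermt2, and the 1 Rela region, 52 bp from the start, held 21 and 27. Regions of 10 fibroblast markers were looked for, and 0 were found in the Kindlin-2 table and 8 in the Rela table, where 6 had a promoter region (2 higher, 1 lower, 3 within 2-fold). Of all genes with a promoter region in the Rela table, 11.1% were higher and 11.2% lower. In the Kindlin-2 table, 0 of 7 epithelial, 0 of 4 endothelial and 1 of 4 leukocyte markers had any region. In the Rela table these counts were 2, 0 and 3. Both epithelial regions, at Krt19 (8 and 19, interval 1.08 to 5.2) and Cdh16 (2 and 7), were called higher without Rela. The Cdh16 interval of 0.74 to 19.4 reached below 1. The part of epithelial or other cells in the results was not tested.

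Promoter sequence upstream of the start was in RefSeq (GRCm38.p6, the same coordinates as mm10) for 5 of the 7 genes. For 3 of these a region of the Rela table covers all of it. Regions of the Kindlin-2 table cover 172 bases of it in Snai1 and 34 in Tgfbr2, where most of the region lies inside the gene. The sequences of these 3 genes are shown. Each is 250 bases long, 5′ to 3′ on the gene's strand, and ends just before the start. In Smad3 capitals mark the GC box letters GGGCGG. In Snai1 they mark the E-box CACCTG, which SNAI factors bind. For Tgfbr2 they mark the 34 bases that lie inside the region of the Kindlin-2 table.
Smad3, chr9:63757995-63758244, minus strand: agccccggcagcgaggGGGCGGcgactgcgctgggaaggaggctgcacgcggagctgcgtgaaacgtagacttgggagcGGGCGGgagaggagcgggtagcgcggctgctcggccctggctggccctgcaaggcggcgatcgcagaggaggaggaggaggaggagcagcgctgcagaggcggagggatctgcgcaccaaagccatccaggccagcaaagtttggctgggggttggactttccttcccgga
Snai1, chr2:167537945-167538194, plus strand: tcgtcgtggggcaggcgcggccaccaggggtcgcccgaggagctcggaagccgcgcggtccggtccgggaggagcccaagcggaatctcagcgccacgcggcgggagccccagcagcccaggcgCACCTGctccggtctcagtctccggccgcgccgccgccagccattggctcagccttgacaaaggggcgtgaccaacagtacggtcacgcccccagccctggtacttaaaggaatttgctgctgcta
Tgfbr2, chr9:116175364-116175613, minus strand: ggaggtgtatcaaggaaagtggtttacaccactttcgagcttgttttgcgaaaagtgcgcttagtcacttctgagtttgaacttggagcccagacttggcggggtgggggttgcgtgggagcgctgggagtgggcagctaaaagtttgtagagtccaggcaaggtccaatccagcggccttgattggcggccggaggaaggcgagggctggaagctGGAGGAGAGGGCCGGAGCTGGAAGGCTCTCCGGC

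These stretches were rich in G and C, with 69.2% in Smad3, 70.0% in Snai1 and 58.4% in Tgfbr2, against a median of 52.4% over 32851 promoters. Both strands were searched for 8 motifs. GGGCGG was found in Smad3 at 2 places and in Tgfbi at 1, and in 32.7% of all promoters. CACCTG stood in Snai1 alone among the 5 genes, 126 bases before the start, and in 17.2% of all promoters. The NF-kB element, searched as GGG, 5 unspecified bases and CC, matched at 5 starting places in Snai1 and at 1 each in Tgfb2 and Tgfbi, and in 45.8% of all promoters. A SMAD element, CAGACA, was matched once in Tgfb2 (17.1% of all promoters) and its GC-rich form GGCGCC once in Tgfbi (9.59%). The palindromic SMAD element GTCTAGAC (0.167% of all promoters), the AP-1 element TGANTCA (6.75%) and the TEAD element GGAATG (12.6%) matched in 0 of the 5. A match of letters does not show that a factor binds there.

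The first comparison asked how accessibility at these genes differed between kidney fibroblasts with and without Kindlin-2. The receptor gene Tgfbr2, the target gene Snai1 and a region upstream of Smad4 had more signal in the knockout, and the Skil promoter had less. All 4 regions were called at 2-fold on the scale with 1 added, 3 higher and 1 lower. For Tgfbr2, with a floxed signal of 0, the difference against a floor of 3 counts was 1.96-fold, short of that limit. Among all regions there, 16.2% were called higher and 9.27% lower, 25.4% in all. Promoter regions alone gave 9.06% and 10.6%. Calls over all regions numbered 925 higher and 531 lower as deposited, 457 and 513 after loess scaling, which takes off the trend of the ratio with signal level, and 594 and 623 after quantile scaling. The 2 largest ratios rest on a floxed signal of 0 and 1, and both were within 2-fold after loess scaling.

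Among receptors, Tgfbr2 encodes the type II receptor that binds the ligand first. Its region in the Kindlin-2 table lies on chromosome 9 (116175212 to 116175397), with its centre 58 bp downstream of the start and 80% of its length inside the gene. The normalized signal there was 0 in floxed cells and 8 in the knockout. Set against a floor of 3 counts, the signal was 1.96-fold higher in the knockout, and the exact interval reached down to 1.25. With 0 in floxed cells, the deposited values could only give a higher signal in the knockout. Loess scaling turned the log2 ratio from 3.17 to -0.15. Both other regions within 50 kb of the gene were weak in floxed cells as well and higher in the knockout. One, 11.9 kb upstream, held 1 and 10 (ratio 10.0, interval 1.05 to 319). Another, 43.7 kb upstream, held 1 and 9, with an interval that reached below 1 (0.916 to 290.0). Chromosome 9 as a whole went the other way, with a median log2 ratio of -0.415 over 91 regions.

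Smad4 encodes the SMAD shared by the TGF-beta and BMP branches. Its promoter had no region in the Kindlin-2 table. The assigned region lies on chromosome 18 (73708241 to 73708626), 4654 bp upstream of the start and outside the gene. Floxed cells held 11 there and knockout cells 35, a 3.18-fold difference (1.47 to 8.02). This was the 1 member of that table that stayed past 2-fold under each scaling and centring tried, with log2 ratios between 1.24 and 2.00. The neighbouring promoters did not share the direction: Mex3c held 112 and 84, and Me2 held 61 and 26 (2.35-fold lower, 1.42 to 3.98). No region of the Rela table overlapped the Smad4 region.

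Skil encodes SnoN, a corepressor that binds SMAD complexes and whose gene is itself induced by TGF-beta. Its promoter region on chromosome 3 (31094466 to 31094927), 361 bp upstream of the start, was the strongest of the 4 members in floxed cells and stronger than 97.7% of regions there. It held 73 in floxed and 33 in knockout cells, a 2.21-fold lower signal (1.42 to 3.55). The log2 ratio of -1.12 lay close to the threshold. After loess scaling it was -0.72, after quantile scaling -0.74, and with the median of regions within 1 Mb taken off -0.996, each within 2-fold.

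Snai1 encodes a zinc finger repressor of epithelial genes that TGF-beta induces. The region on chromosome 2 (167537941 to 167538116), centred 166 bp upstream of the start, covers 172 of the 250 promoter bases shown, including the E-box. It held 1 in floxed and 13 in knockout cells, a ratio of 13.0 with an interval from 1.43 to 406. Loess scaling lowered the log2 ratio from 2.81 to 0.97, just within 2-fold. The nearest named promoters, Slc9a8 and Pard6b, held 11 and 8 and 27 and 22, both within 2-fold.

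**Figure D1:**
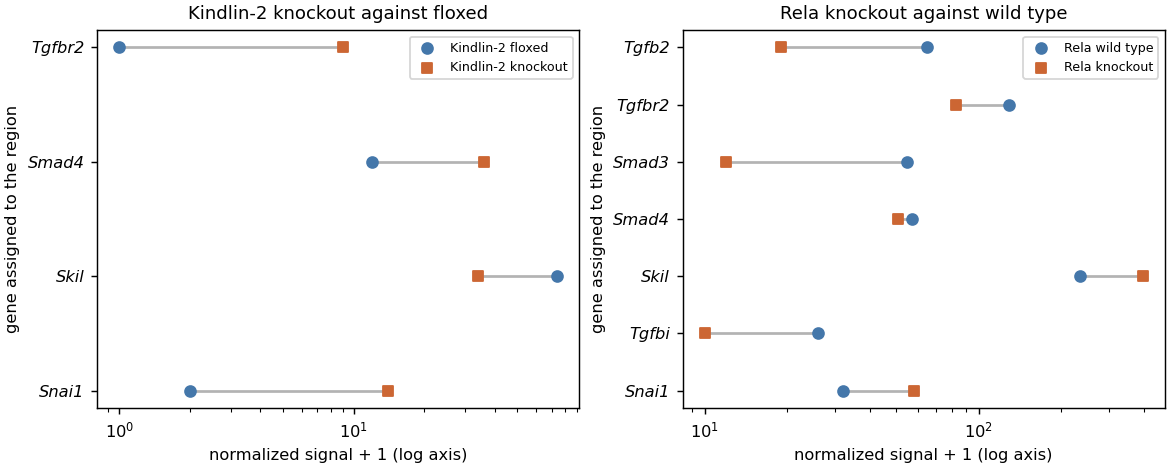
Normalized signal plus 1 on a log axis for each member region, for the Kindlin-2 pair on the left and the Rela pair on the right, 1 value per genotype. Tgfbr2, Smad4 and Snai1 sit to the right in Kindlin-2 knockout cells and Skil to the left, while Tgfb2, Smad3 and Tgfbi sit to the left in Rela knockout cells.

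The second comparison asked the same of 3T3 fibroblasts with and without Rela. All 7 genes had a region within 2500 bp of the start. The ligand gene Tgfb2, the transducer gene Smad3 and the target gene Tgfbi had less signal in the knockout, by 2.78-fold to 4.91-fold. Skil and Snai1 had somewhat more, within 2-fold, and Tgfbr2 and Smad4 somewhat less or nearly the same. The count was 0 higher, 3 lower and 4 within 2-fold, where 22.4% of all regions were higher and 21.0% lower, 43.3% in all. The median log2 ratio of the 7 was -0.64, beside 0.00 over 28332 regions. Among promoter regions alone, 13.0% were higher and 13.1% lower.

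Tgfb2 encodes one of the TGF-beta ligands. Its region on chromosome 1 (186705213 to 186705641) lies wholly inside the gene, 562 bp downstream of the start. It held 64 in wild-type cells and 18 without Rela, a 3.56-fold lower signal (2.16 to 6.18). This ratio was lower than that of 90.4% of the table's regions. Within 50 kb of the gene there were 6 other regions, of which 5 were also called lower, where 21.0% of all regions were. One inside the gene, 25.2 kb from the start, held 38 and 2, a 19.0-fold difference (5.32 to 170.0). The table assigns that region to a snoRNA gene. A group of 4 lay 92.1 to 124.2 kb downstream of the start, beyond the end of the gene, and was lower by 2.23-fold to 6.75-fold. The strongest of these held 169 and 28 (6.04-fold, 4.05 to 8.97). On the other side, the promoter of Rrp15 held 16 and 14. Regions within 1 Mb had a median log2 ratio of -1.26 (26 regions, the 6 above among them). With that taken off Tgfb2 was at -0.515, within 2-fold. Chromosome 1 as a whole had a median of -0.05.

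At the receptor gene Tgfbr2 the region was much wider than in the Kindlin-2 table (chromosome 9, 116174377 to 116175616) and covers all of the promoter sequence shown. It held 128 in wild-type cells and 82 without Rela, 1.56-fold lower (1.21 to 2.04) and within the 2-fold limit. A region inside the gene, 22.3 kb from the start, was the strongest of the locus with 246 and 165, and was also within 2-fold. Upstream, 3 of 4 regions were called lower, where 21.0% of all regions were. Among them was the one 11.9 kb from the start with 20 and 3 (6.67-fold, 2.16 to 35.7). That region and the one 43.6 kb upstream overlap the 2 that were higher without Kindlin-2. A weak region 84.1 kb into the gene held 0 and 9. Against the floor that was 4.39-fold more, with a lower exact limit of 2.74.

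Smad3 encodes a receptor-activated SMAD. Its promoter region on chromosome 9 (63757950 to 63758293), 128 bp upstream of the start, held 54 in wild-type cells and 11 without Rela. That is 4.91-fold less (2.57 to 9.56), the largest of the 7 differences, and 2.36% of promoter regions had a lower ratio. Of the 8 other regions of the locus, 1 was called lower and 0 higher, with a median log2 ratio of -0.15. Inside the gene, the called region, at 41.7 kb from the start, held 22 and 10 (2.20-fold, 1.03 to 4.60). The others there ranged from 27 and 17 at 83.2 kb to 25 and 38 at 14.0 kb. Regions within 1 Mb had a median of -0.64 (25 regions). Around the gene, the Iqch promoter held 37 and 20, and the promoter of Smad6, an inhibitory SMAD, held 90 and 88. Smad3 stayed past 2-fold under each scaling and centring tried, with log2 ratios between -2.22 and -1.56.

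The Smad4 promoter region (chromosome 18, 73703795 to 73704324, 280 bp upstream of the start) held 56 in wild-type cells and 50 without Rela. The difference of 1.12-fold had an interval from 0.779 to 1.60 and could not be told from counting error. Of the 4 other regions of the locus, 2 were called higher, where 22.4% of all regions were. The one 31.3 kb upstream held 13 and 68 (5.23-fold, 3.14 to 9.25).

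The Skil region was the strongest of the 7 members, with 234 in wild-type cells and 396 without Rela. It spans the start on chromosome 3 (31093659 to 31095982) and was 1.69-fold higher (1.46 to 1.95). All 5 regions of the Skil locus had a higher signal without Rela, with log2 ratios from 0.70 to 1.25, and 1 of them was past 2-fold. The whole area leaned the same way: regions of chromosome 3 had a median of 0.53 and those within 1 Mb a median of 0.78 (27 regions). With the latter taken off, the Skil log2 ratio was -0.02.

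Tgfbi encodes a secreted matrix protein named for its induction by TGF-beta. Its region on chromosome 13 (56607203 to 56607585) lies 2209 bp upstream of the start, near the edge of the promoter window. It was the weakest of the 7, with 25 in wild-type cells and 9 without Rela, 2.78-fold less (1.40 to 6.97). None of the 4 other regions of the locus was past 2-fold, and 2 of them leaned upward, among them the one 8.2 kb upstream with 74 and 118. Chromosome 13 had a median of -0.79. With the chromosome median taken off, Tgfbi was at -0.59 and within 2-fold, whereas against regions within 1 Mb it was at -1.75.

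The Snai1 promoter region (chromosome 2, 167537874 to 167538340) held 31 in wild-type cells and 57 without Rela, 1.84-fold more (1.24 to 2.79). Its log2 ratio of 0.86 passed the 2-fold limit once the chromosome median was taken off (1.02) or the median within 1 Mb (1.12). All 6 other regions of the locus, from 5.5 to 52.5 kb downstream of the start, had less signal in the knockout. Of these 3 were called lower, beside 21.0% of all regions. The most extreme, 48.0 kb away, held 40 and 4 (10.0-fold, 3.93 to 40.2). At Snai1 the promoter differed in direction from these 6 regions. The regions 15.0 kb (44 and 36, interval 0.799 to 1.86) and 36.8 kb away (54 and 47, 0.788 to 1.65) could not be told from counting error.

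**Figure D2:**
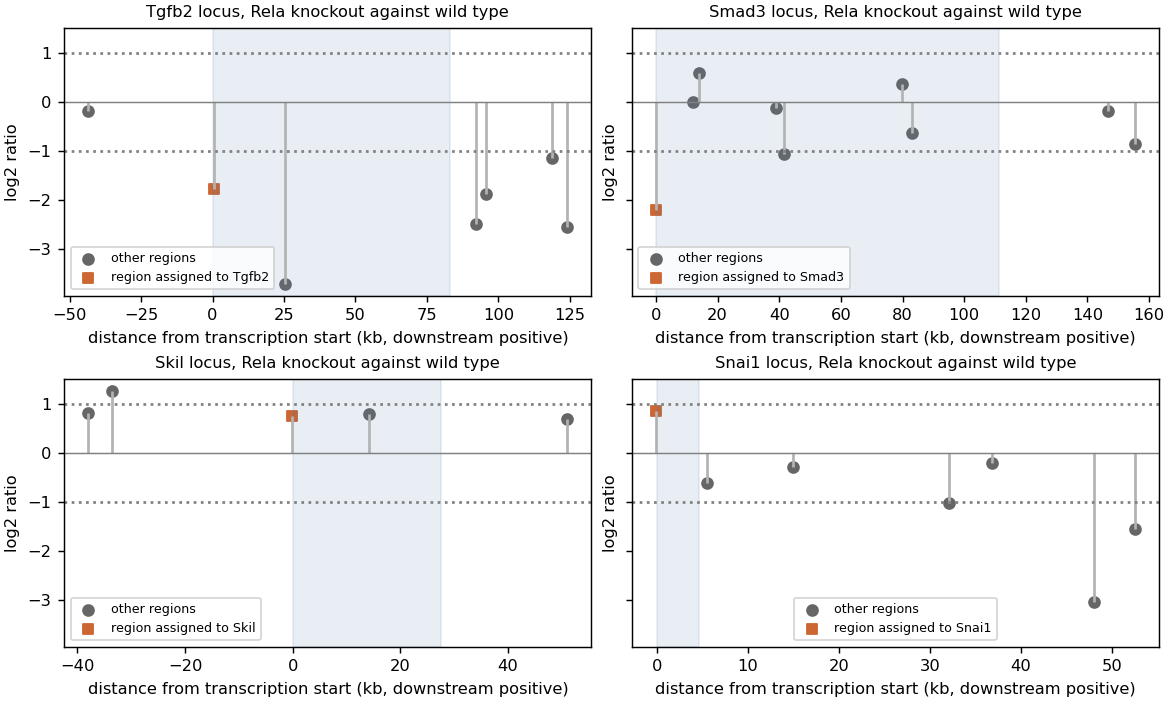
Log2 ratio of Rela knockout over wild type for every region within 50 kb of Tgfb2, Smad3, Skil and Snai1, by distance from the start in kb, with the gene body shaded and dotted lines at 2-fold. All 7 regions at Tgfb2 lie below 0 and all 5 at Skil above it, while at Smad3 the promoter lies below the 8 other regions and at Snai1 above the 6 others.

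Around the 7 genes the Rela table held 39 further regions, 4 higher and 12 lower, where 22.4% and 21.0% of all regions were. Most of them had no assigned gene. In the Kindlin-2 table there were 9, of which 4 were higher and 0 lower (16.2% and 9.27% over all regions), and all 4 had a floxed signal of 3 or less. They included a region 39.1 kb downstream of the Tgfbi start with 0 and 10, which against the floor was 2.45-fold more (lower exact limit 1.65). Near Tgfb2, which had no assigned region in that table, 3 regions downstream of the gene held 34 and 50, 8 and 12, and 3 and 10. The last is 1 of the 4 called higher. All 3 intervals reached below 1 (0.892 to 2.48, 0.51 to 4.77 and 0.783 to 34.5), so none could be told from counting error. The regions with 34 and 50 and with 3 and 10 overlap regions that were lower without Rela. No region of the Kindlin-2 table lay within 50 kb of Smad3.

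**Figure D3:**
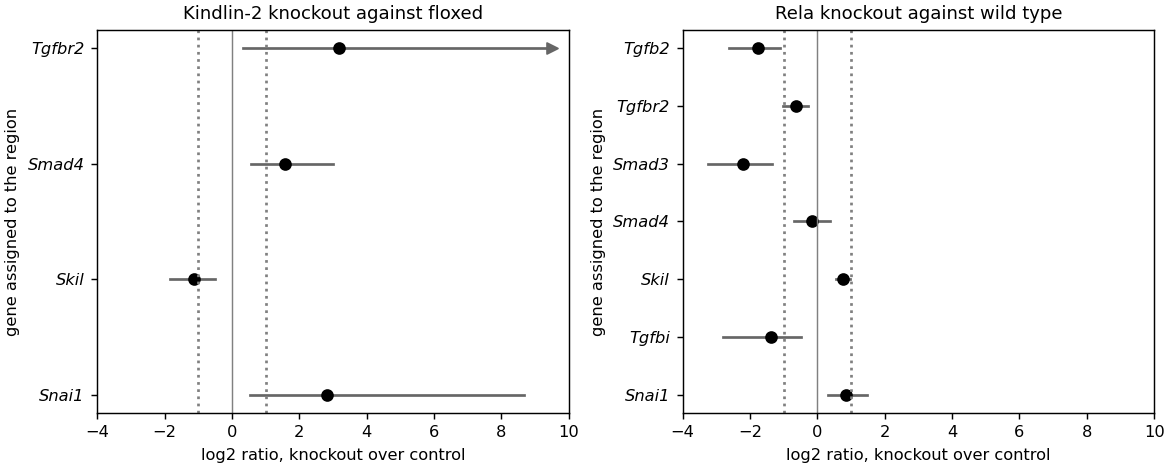
Log2 ratio (knockout over control, 1 added to both signals) of each member region as a point, with dotted lines at 2-fold. The line is the 95% exact interval for counting error of the ratio without 1 added, so it is not the interval of the point itself. An arrow marks the open upper end for Tgfbr2 in the Kindlin-2 pair, where the floxed signal was 0. The intervals are narrowest for Skil and widest for Tgfbr2 and Snai1 in the Kindlin-2 pair.

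For 4 genes both comparisons gave a value. Tgfbr2 had a log2 ratio of 3.17 without Kindlin-2 and -0.64 without Rela. Skil had -1.12 and 0.76, and Snai1 had 2.81 and 0.86. The Smad4 values of 1.585 and -0.16 belong to different regions, one far upstream and one at the promoter. The difference between the knockouts was not tested. Among 1242 genes with promoters of at least median signal in both tables, or 1241 for Skil, which is one of them, the pair of ratios nearest to Skil was that of Echdc1 (-1.13 and 0.71). Msmo1 followed with -1.07 and 0.74. Likeness was the distance between the 2 pairs of log2 ratios, 0.05 and 0.06 here. Snai1 and Tgfbr2 were themselves below the median signal that was asked of the genes they were compared with, and their Kindlin-2 ratios rest on floxed signals of 1 and 0. Their nearest genes, Hsdl2 and Fam172a at 0.63 and 1.25 from Snai1 and at 1.585 and 0.91 from Tgfbr2, therefore say little about likeness.

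The wider pathway was described by a list of 87 genes in 7 roles, taking the mean log2 ratio of each gene's promoter regions. Of these, 15 had a promoter region in the Kindlin-2 table, where 5 were higher, 2 lower and 8 within 2-fold. Among all 2361 genes measured that way, 8.30% were higher and 10.9% lower. The list's median was 0.18, also with Tgfbr2 put at its value against the floor, beside -0.17 for all genes. Both measured genes of latency and activation were higher. Itgb8, an integrin subunit that releases active TGF-beta, held 10 and 31 (3.10-fold, 1.41 to 8.75), and Thbs1, which encodes the TGF-beta activator thrombospondin-1, held 10 and 25 (2.50-fold, 1.10 to 7.19). From a log2 ratio of 1.54, Itgb8 dropped to 0.99 with the chromosome median taken off and to 0.74 with the median within 1 Mb. Tgfbr1, the type I receptor gene, held 38 and 21, and Acvr2a held 14 and 16, both within 2-fold. Tgfbr2, with 0 and 8, was the 1 of 3 receptors called, on the scale with 1 added. Against the floor it was 1.96-fold higher, which falls short of 2-fold, and loess scaling turned its log2 ratio to -0.15. Smad2 held 27 and 28 and Smad1 held 12 and 17. Ppm1a, a phosphatase gene of the SMAD regulators, held 5 and 12, and the target Fn1, which encodes fibronectin, held 26 and 12. Both of their intervals reached below 1. In every setting that changed its log2 ratio of 1.115, Ppm1a was within 2-fold, at 0.47 to 0.82. Fn1, at -1.05, was within 2-fold with a pseudocount of 5 (-0.87) and after loess scaling (-0.97). It stayed past 2-fold after quantile scaling (-1.09) and with the chromosome median (-1.32) or the 1 Mb median (-1.37) taken off. No ligand or antagonist gene had a promoter region in that table.

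Of the 87 genes, 50 had a promoter region in the Rela table, where 2 were higher, 4 lower and 44 within 2-fold. Among all 6586 genes 11.1% were higher and 11.2% lower, and the medians were 0.00 for the list and -0.025 for all genes. Smad3, Tgfb2 and Tgfbi made up 3 of the 4 lower genes, and the other was the activin receptor gene Acvr1b with 44 and 21 (2.10-fold, 1.27 to 3.57). The BMP antagonist gene Nog held 8 and 22 (2.75-fold higher, 1.27 to 5.87). The target Postn, encoding the matrix protein periostin, held 10 and 22 (2.20-fold higher, 1.06 to 4.39), 2484 bp from the start and near the edge of the promoter window. Each of these 3 lost its call under a centring: with the median within 1 Mb taken off, Nog was at 0.48 and Acvr1b at -0.80, and with the chromosome median taken off Postn was at 0.53. Of 7 SMAD genes only Smad3 was past 2-fold, and the other 6 lay between -0.16 and 0.37 on the log2 scale. Smad2, the other TGF-beta transducer, held 158 and 204. Tgfbr1 held 82 and 111, slightly higher where Tgfbr2 was slightly lower. All 10 SMAD regulators and all 5 genes of latency and activation were within 2-fold. Among 17 targets, Ctgf (96 and 55) and Acta2 (143 and 76) were lower by less than 2-fold, and the E-box binding gene Twist1 was higher by slightly less than 2-fold (53 and 105).

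**Figure D4:**
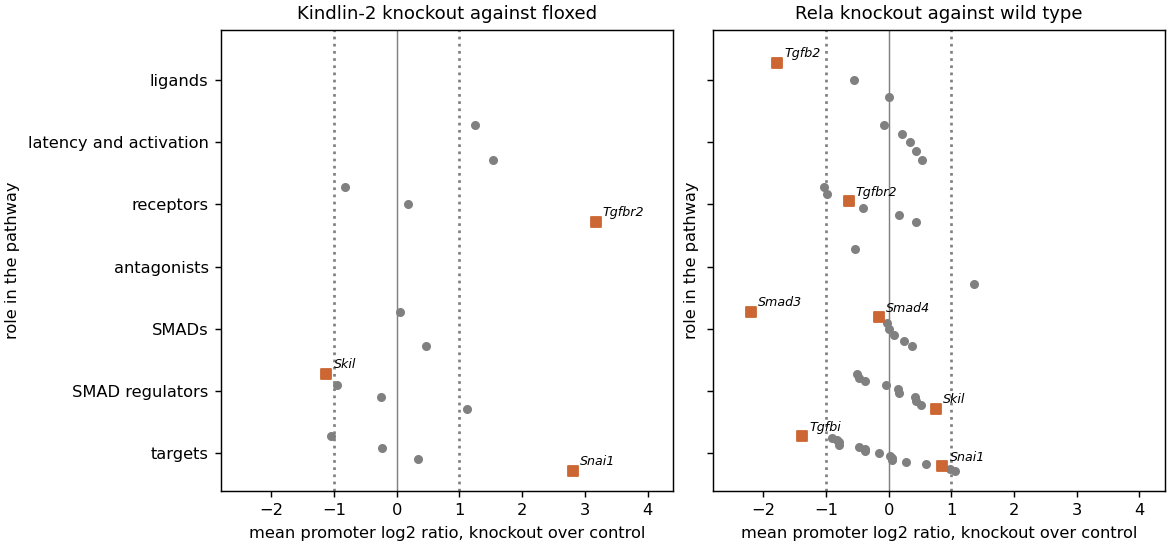
Mean promoter log2 ratio of each measured pathway gene, by role, for the Kindlin-2 pair (left, 15 genes) and the Rela pair (right, 50 genes), with the 7 genes as named squares and dotted lines at 2-fold. Smad3 and Tgfb2 lie farthest to the left in the Rela pair, and Tgfbr2 and Snai1 farthest to the right in the Kindlin-2 pair.

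The authors' Rela table also labels 42 genes with the KEGG term for TGF-beta signalling, and 39 of these had a promoter region. In that set 3 were higher, 5 lower and 31 within 2-fold, with a median of -0.06, beside 11.1% higher and 11.2% lower over all genes. Besides Smad3, Tgfb2 and Acvr1b, the lower ones were Id4 (73 and 30), a member of the BMP-responsive Id family, and the cullin gene Cul1 (92 and 44). The higher ones included Nog and E2f4 (1 and 10). Of these genes, 13 had a promoter region in the Kindlin-2 table, with 3 higher and 1 lower (8.30% and 10.9% over all genes). Ppp2ca, a phosphatase gene, held 3 and 7 there (2.33-fold, 0.49 to 25.4), and its log2 ratio with 1 added was just at the threshold. E2f5 was 2.52-fold lower with 78 and 31 (1.59 to 4.01).

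**Figure D5:**
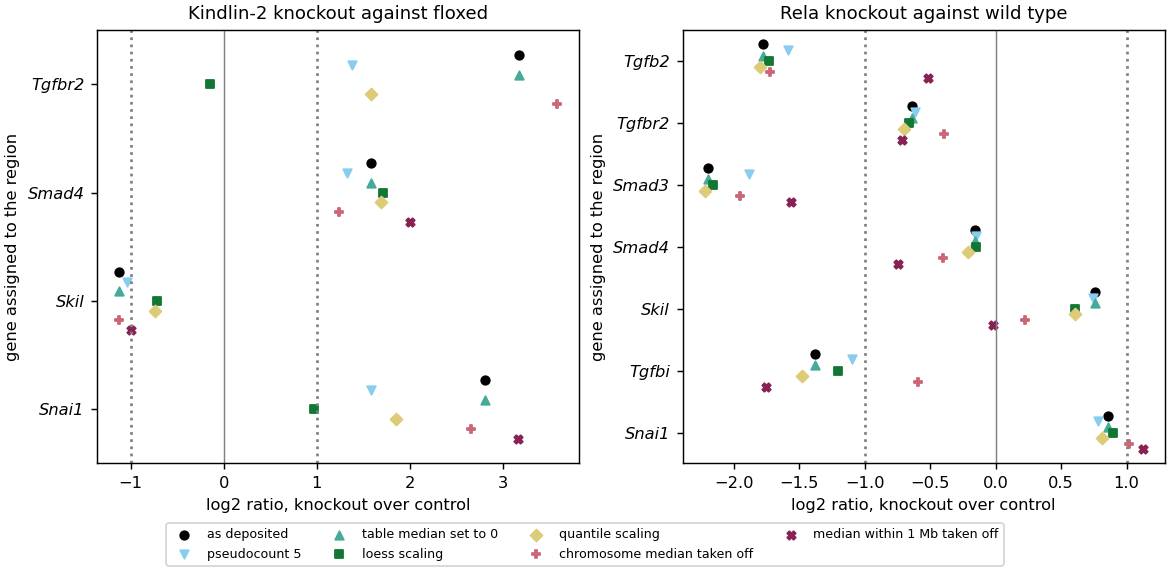
Log2 ratio of each member region as deposited and under 6 other scalings or centrings, with dotted lines at 2-fold. Smad3 in the Rela pair and Smad4 in the Kindlin-2 pair stay past 2-fold throughout, while Tgfb2 and Tgfbi drop within 2-fold under a centring. In the Kindlin-2 pair, Tgfbr2 and Snai1 drop within 2-fold after loess scaling, and Skil after loess, quantile scaling and the 1 Mb centring.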

How the data were processed

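Build mm10 and the tools Trimmomatic 0.33, STAR 2.4.2a, Picard 1.136, FastQC, bedtools, MACS2, DESeq2 and deepTools are named, with neither role nor order, per the submitters' processing notes. No source used here states Tn5 shifting, duplicate handling or how regions were called. For each knockout the authors deposited a single table holding 1 column per genotype. The score values are whole numbers that the authors corrected for background and scaled by the DESeq method, going by the names of the deposited tables. The deposited distance of a region's centre to the start, the fraction of its length inside the gene and the assigned gene were used as they stand. Whether region starts count from 0 or 1 is not stated.

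Regions entered at a mean signal of at least 1, which left out 0 of the 11 members. Log2 ratios used a pseudocount of 1 and were called at 2-fold. Promoters lay within 2500 bp of a start. The planned limma test needed replicate columns and was replaced by the description planned for this case. Scale factors behind the whole numbers were read from which whole numbers occurred often or rarely: 1.36 for Kindlin-2 floxed, 0.683 for Rela wild type and 0.949 for Rela knockout. For Kindlin-2 knockout the best factor explained 17.3% of the deviance, so 1 was used. Implied counts gave exact (Clopper-Pearson) 95% intervals, which leave out replicate error and any error of the background correction. Where a column was at 0, a floor of 3 counts stood in for it. The fit was tested on simulated counts with 1 known factor per column and no background correction. The Kindlin-2 knockout column showed no clear factor, so that test does not cover the Kindlin-2 intervals. Loess used statsmodels 0.14.6 with a span of 0.3. Alternatives were a pseudocount of 5, other filters, scalings and centrings, a 1.5-fold threshold and a promoter window of 1000 bp.

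The named regions and genes were all regions of the 7 genes, pathway genes past 2-fold by promoter, the 2 genes nearest in pattern and the named neighbours of member regions past 2-fold. Other pathway genes printed within 2-fold, the KEGG set and the regions within 50 kb were chosen after values were seen. The 7 genes and the lists were chosen with earlier results of these data known. Values of some genes of these lists are not reported here.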

Additional observations from a re-analysis of the deposited data

How the results depend on the processing

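No paired analysis was possible because each genotype has 1 column, and no replicate could be left out. Setting the table median to 0 could not move a call, since the median log2 ratio of both tables was 0.0 already. Dropping the filter on low values could not move a call of the 7 genes, whose regions all pass it. It moved no count of the pathway list. For regions of the 7 genes in the Kindlin-2 pair, 3 were higher and 1 lower as deposited. Loess scaling gave 1 and 0, and the lower call was also lost after quantile scaling (0) and with the median within 1 Mb taken off (0). A mean of at least 10 left 1 higher, since Tgfbr2 and Snai1 were not tested there. Tgfbr2 turned to -0.148 after loess scaling, and the 1 Mb centring gave it no value, for want of 5 neighbours. In the Rela pair 0 were higher and 3 lower. With the chromosome or the 1 Mb median taken off, 1 was higher (Snai1) and 2 lower, and at 1.5-fold 2 were higher. For the pathway list in the Kindlin-2 pair (5 higher, 2 lower), a pseudocount of 5 gave 1 lower, loess 2 higher and 0 lower, quantile scaling 1 lower, chromosome centring 3 higher, 1 Mb centring 1 higher, a mean of at least 10 gave 2 higher, and 1.5-fold 4 lower. In the Rela pair the list had 2 higher and 4 lower. A pseudocount of 5 gave 1 higher, 1 Mb centring 4 higher, 1.5-fold 6 higher and 10 lower, and a window of 1000 bp 0 higher. Shares over all genes under these other settings were not worked out for either pair. The moved counts are therefore not a result about these genes. Where no construction is named, the cause was not tested. Depth limits the Kindlin-2 pair most, where a median floxed region rests on about 11.8 counts.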
